A study of Mus musculus with 6 samples.

Results

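The genes described here encode the core and auxiliary proteins of the splicing machinery: SR proteins, hnRNP proteins, the proteins of the small nuclear ribonucleoprotein particles (snRNPs), SF3A, SF3B, U2AF, the PRPF proteins and the LSm proteins. They were taken by name, as the protein-coding rows of the deposited gene table whose symbol begins with Srsf, Hnrnp, Snrp, Sf3a, Sf3b, U2af or Prpf or is one of Lsm1 to Lsm8, which gave 74 of 15836 rows. The families hold 10 Srsf, 20 Hnrnp, 12 Snrp, 3 Sf3a, 6 Sf3b, 2 U2af, 13 Prpf and 8 Lsm genes. A further 1 row with such a symbol, Snrpert, is not protein-coding and was left out, and Srsf12 and U2af1l4 have no row here. RNA was sequenced from a mouse cell line labelled CAF, the usual abbreviation of cancer-associated fibroblast, which the labels place in a pancreatic tumour. The 3 control libraries (NC-1 to NC-3) have the genotype wt and the treatment control, and the 3 MAOA-KO libraries (KO-1 to KO-3) the genotype MAOA ko and the treatment MAOA knockout, while a description field of the latter says knockdown. All share the line and tissue, and the labels do not say how the gene was disrupted, whether the cells are 1 clone or whether the replicates are separate cultures, so that p-values measure the spread between these libraries, which may be technical. The study's title concerns monoamine oxidase A, a mitochondrial enzyme known to break down serotonin, and serotonylation of histone H3 in such fibroblasts.

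Splicing removes introns from pre-mRNA in steps carried out by the spliceosome, a large assembly built anew on each intron. The U1 snRNP recognises the donor splice site, U2AF and the U2 snRNP with SF3A and SF3B recognise the acceptor site and the branch point, and the tri-snRNP with its PRPF proteins then brings in the parts that form the catalytic centre. Most snRNPs are built around a ring of Sm proteins, whereas U6 carries a ring of LSm proteins. SR and hnRNP proteins bind exons and introns, often with opposed effects on whether a site is used, and many of them are known to tune their own mRNA level through exons that send the transcript to decay. The table holds 1 count per gene, so isoforms and splicing itself were not measured.

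Values are CPM (read counts scaled to a common library size), adjusted for composition, with tests from edgeR's quasi-likelihood model fitted over all 13243 genes that passed the filter on low counts and Benjamini-Hochberg adjustment over all of them; a gene was called at an adjusted p under 0.05. Library totals ran from 18631359 to 26645441 counts, so that 3 counts, the limit that a count of 0 allows, stand for 0.110 to 0.156 CPM; such limits cover counting error only. The row named Maoa had 1124, 1151 and 1221 counts in the controls and 545, 664 and 490 counts in the MAOA-KO libraries, 49.0 ± 0.922 against 24.9 ± 0.639 CPM (SD, n = 3), with an edgeR adjusted p of 3.46e-15, but the locus and length listed in that row are not those of Maoa in the GENCODE annotation, so it is a weak check of the labels. Of the 10 fibroblast markers examined, 9 had a row and 5 passed the filter, of which 1 was called higher and 4 lower, with a summed level of 3467 to 3609 CPM in the controls and 1901 to 1957 CPM in the MAOA-KO libraries that lay mostly in Vim. Lum had no row, and Col3a1, the marker called higher, lay between 116 and 131 CPM. Col1a1 lay between 0.417 and 2.04 CPM, Pdgfra between 0.469 and 1.56 CPM and Pdgfrb between 0.825 and 2.43 CPM, and the other 4 (Col1a2, Dcn, Thy1 and Fap) were at most 0.658 CPM. All 5 epithelial markers had a row and 4 were tested, of which 0 were called higher and 3 lower (edgeR adjusted p under 0.05), namely the keratin genes Krt8, Krt18 and Krt19, with a summed level of 2089 to 2219 CPM against 1211 to 1282 CPM. Epcam was at most 0.451 CPM, and 0 of 5 leukocyte markers had a row. The part of these markers in the results below was not tested.

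Most splicing factor genes had less mRNA in the MAOA-KO libraries. Of the 74 genes, all of which were tested, 47 fell and 15 rose, and 12 were not called. The comparison changed much of the transcriptome: among all genes tested 36.9% were called lower and 37% higher, 73.9% in all, against 63.5% lower and 20.3% higher of the splicing factor genes. Among well expressed protein-coding genes (higher group's mean 10 CPM or more), a level that 73 of the 74 exceed in every library, the background was 43% lower and 36.4% higher. Both backgrounds are to be set beside the counts of each family below. The median log2 fold change (MAOA-KO over control) was -0.26 over the splicing factor genes, with a range from -1.16 to 1.29, and 0.00 over all genes tested. The groups did not overlap in 62 of the 74 genes, or 83.8%, against 75.1% of all genes. Among the well expressed protein-coding genes they did not overlap in 7374 of 9194, a share close to that of the splicing factor genes. Most differences were moderate: tested against a change of 1.2-fold, 31 were called lower and 5 higher, where 22.3% and 23.6% of all genes were. The authors' deposited table calls 57.5% of its rows at a false discovery rate under 0.05, and of the splicing factor genes 14 higher and 47 lower. Of these, 61 were called in the same direction by edgeR.

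**Figure D1:**
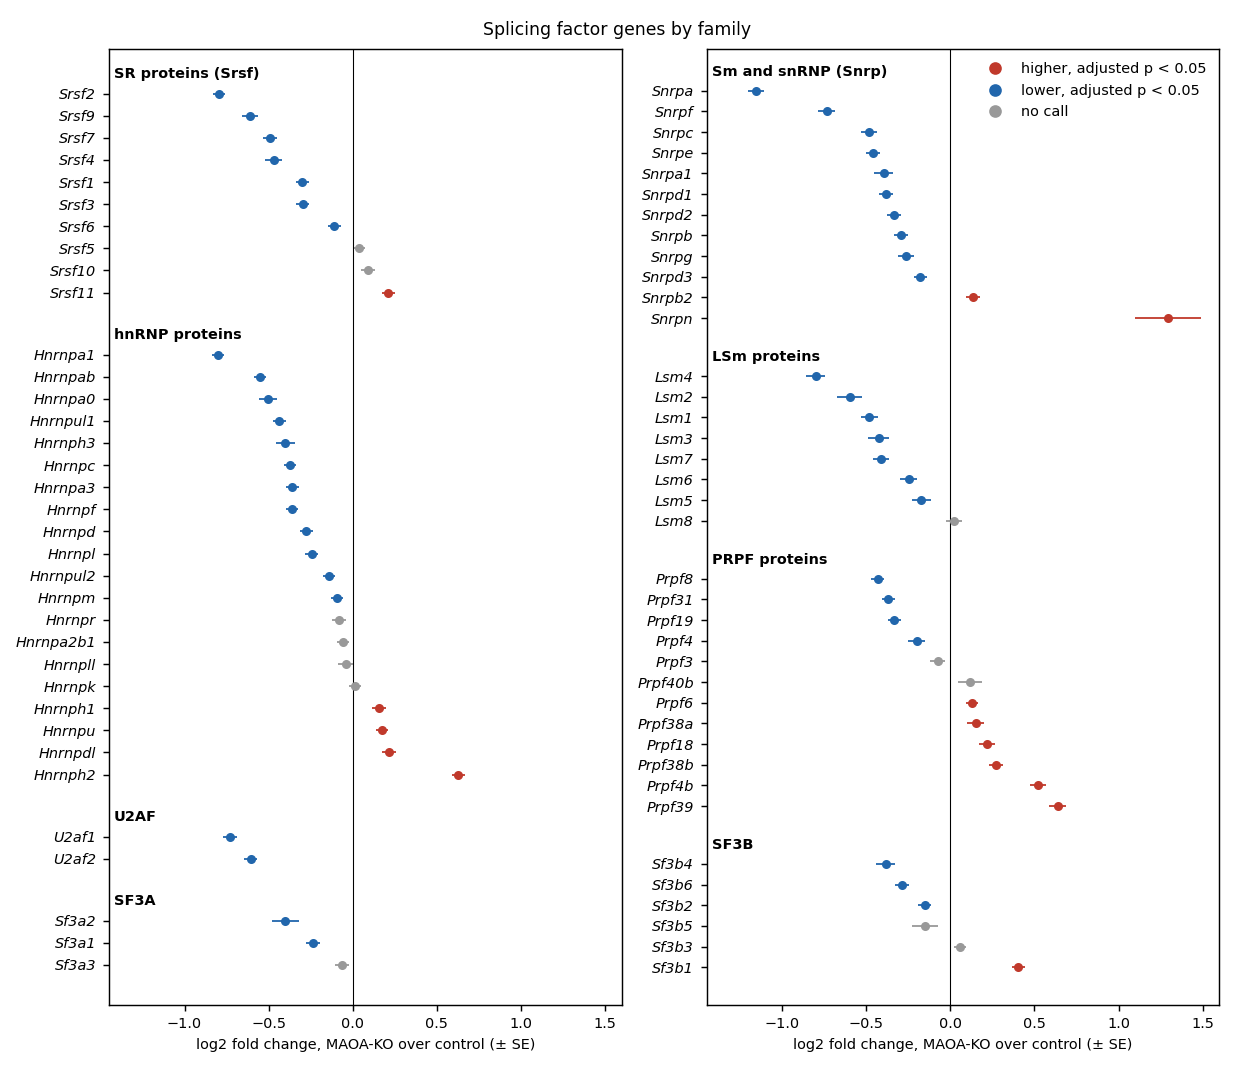
Log2 fold change of MAOA-KO over control for 73 of the 74 genes, by family, with points for the edgeR estimate and bars for its SE, coloured by call. Snrpa at -1.16 and Snrpn at 1.29 are the ends of the range, and blue points (47) outnumber red ones (14).

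Summed over the 74 genes, the level was 14751, 15038.5 and 15020.1 CPM in the controls and 12951, 13237 and 13135 CPM in the MAOA-KO libraries, a fall of 12.2%. The groups did not overlap in this sum. Between libraries of 1 group the genes varied little, with a median coefficient of variation of 3.21% in the controls and 3.15% in the MAOA-KO libraries and the highest values, 10.2% and 12.6%, for Sf3a2. In a bulk sample a lower level in every cell and a smaller share of cells with a high level cannot be told apart.

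Among the snRNP proteins (Snrp), 10 of 12 genes fell and 2 rose, with a median log2 fold change of -0.36. Snrpa, which encodes the U1 protein that binds a stem-loop of U1 RNA, had the lowest log2 fold change of the 74 genes. It lies on chromosome 7 (chr7:27187005-27196271, minus strand, GRCm38.p6) and had 3167, 3001 and 3061 counts in the controls and 1334, 1510 and 1118 counts in the MAOA-KO libraries. Scaled, these were 137, 126 and 125 CPM in the controls and 61.1, 55.2 and 58.3 CPM in the MAOA-KO libraries. Every MAOA-KO library lay far below every control, and the gene fell 2.23-fold, from 129.5 ± 6.83 to 58.2 ± 2.97 CPM as mean ± SD of 3 libraries (log2 fold change -1.16, SE 0.047, edgeR adjusted p 2.92e-17). An exon of Snrpa overlaps a row on the opposite strand, BC024978, and the strand setting of the counting is not given in the sources used here. Snrpc, the U1 protein at the duplex with the donor site, measured 69.2, 64.96 and 62.2 CPM in the controls and 47.02, 46.1 and 47.1 CPM in the MAOA-KO libraries. Its groups did not overlap (log2 fold change -0.49, SE 0.048, edgeR adjusted p 1.14e-09).

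The promoter of Snrpa is shown because it is the gene with the largest fall, beside that of Prpf39, which rose and holds the same motif (chosen after the values were seen). Both are RefSeq windows on GRCm38.p6, from 250 bases before to 50 after the listed start, written 5′ to 3′ on the gene's strand, with the E-box motif CACGTG in capitals. For Snrpa the window is chr7:27196222-27196521 (minus strand, the first of 2 starts listed), with motifs at -73 and -32, and for Prpf39 it is chr12:65036084-65036383 (plus strand), with 1 motif at -43.
Snrpa: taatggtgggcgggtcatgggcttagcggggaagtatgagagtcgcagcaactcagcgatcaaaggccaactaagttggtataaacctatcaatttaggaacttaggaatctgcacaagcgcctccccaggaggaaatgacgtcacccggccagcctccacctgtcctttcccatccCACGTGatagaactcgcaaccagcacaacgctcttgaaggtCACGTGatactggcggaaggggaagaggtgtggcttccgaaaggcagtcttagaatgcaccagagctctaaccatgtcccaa
Prpf39: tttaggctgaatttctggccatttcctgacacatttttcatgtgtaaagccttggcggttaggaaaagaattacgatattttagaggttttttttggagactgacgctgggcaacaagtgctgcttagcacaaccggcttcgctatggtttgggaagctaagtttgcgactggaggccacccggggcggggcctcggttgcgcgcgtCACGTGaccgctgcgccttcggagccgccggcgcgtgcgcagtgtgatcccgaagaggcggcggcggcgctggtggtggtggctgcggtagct
Of the 74 genes, 63 had a promoter in the table. Searched on both strands, CACGTG was in 9 of the 63 windows (14.3%), CCAAT in 33 (52.4%) and CCGGAAG, an ETS-type motif, in 21 (33.3%). The shares were 12.9%, 43.0% and 22.9% over 7451 protein-coding genes of at least 10 CPM, and 8.09%, 41.1% and 9.93% over all 27025 genes in the table. The 40 windows of genes that fell held the motifs in 5, 22 and 13 cases and the 13 of genes that rose in 2, 5 and 4 cases. These are matches of letters within 300 bases, and binding was not measured.

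The 7 genes of the Sm ring (Snrpb, Snrpd1, Snrpd2, Snrpd3, Snrpe, Snrpf and Snrpg) all fell, from -0.74 to -0.18 with a median of -0.33 on the log2 scale. Snrpf had the largest fall of the ring, with 73.99, 70.4 and 71.9 CPM in the controls and 46.6, 41.1 and 42.3 CPM in the MAOA-KO libraries (log2 fold change -0.74, SE 0.049, edgeR adjusted p 7.06e-13). It overlaps the opposite-strand row Ccdc38. Snrpe, which had the highest FPKM (a level per transcript length) of the Snrp genes, measured 92.1, 92.96 and 93.2 CPM in the controls and 66.9, 67.8 and 67.8 CPM in the MAOA-KO libraries. All MAOA-KO libraries lay below all controls (log2 fold change -0.46, SE 0.041, edgeR adjusted p 1.77e-10), and the FPKM was 179 ± 1.13 FPKM in the controls and 138 ± 0.706 FPKM in the MAOA-KO libraries (SD, n = 3). The non-coding row Snrpert holds a near-identical copy of it. Snrpb, which encodes SmB, measured 133, 131 and 124 CPM in the controls and 110.4, 101 and 105 CPM in the MAOA-KO libraries (log2 fold change -0.29, SE 0.043, edgeR adjusted p 1.05e-06). The remaining ring genes had log2 fold changes of -0.38 for Snrpd1, -0.33 for Snrpd2, -0.26 for Snrpg and -0.18 for Snrpd3, each without overlap of the groups. Of the U2 proteins, Snrpa1 fell (log2 fold change -0.40, SE 0.056, edgeR adjusted p 5.68e-07), whereas its partner on U2 RNA, Snrpb2, was higher by a small amount, with 79.3, 87.9 and 85.7 CPM in the controls and 91.5, 92.9 and 93.4 CPM in the MAOA-KO libraries (log2 fold change 0.13, SE 0.044, edgeR adjusted p 0.00756). Without control replicate 1 the Snrpb2 call was lost (adjusted p 0.0693), and a correction for GC content and length turned its sign (-0.03).

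Snrpn rose while its paralog Snrpb fell. It encodes SmN, a tissue-restricted form of SmB best known from neurons, and is expressed from the paternal allele only. At chr7:59982495-60140219 (minus strand, GRCm38.p6), it had 22, 19 and 23 counts in the controls and 54, 57 and 40 counts in the MAOA-KO libraries. These were 0.955, 0.796 and 0.943 CPM in the controls and 2.47, 2.08 and 2.09 CPM in the MAOA-KO libraries, the lowest level of the 74 genes and still above the counting limit. Each MAOA-KO library exceeded each control by more than the spread within groups (log2 fold change 1.29, SE 0.20, edgeR adjusted p 1.95e-06). Gm38393, a row on the same strand, shares exon sequence with it, so reads of the pair may have been divided in counting. The log2 ratio of Snrpb to Snrpn was 7.14 ± 0.165 in the controls and 5.56 ± 0.0871 in the MAOA-KO libraries (SD, n = 3), so that Snrpb remained far the more abundant in counts.

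Of the 8 LSm genes, 7 fell, 0 rose and Lsm8 was not called, with a median of -0.42. LSm2 to LSm8 form the nuclear ring on U6 RNA, and LSm1 replaces LSm8 in the cytoplasmic ring, which acts in mRNA decapping and decay. Lsm4, a subunit of both rings, had the largest fall of the family at 47.7, 44.05 and 43.03 CPM in the controls and 26.7, 24.1 and 26.8 CPM in the MAOA-KO libraries (log2 fold change -0.80, SE 0.057, edgeR adjusted p 2.12e-12). Lsm2, also in both rings, measured 21.2, 21.3 and 18.7 CPM in the controls and 14.1, 12.3 and 14.3 CPM in the MAOA-KO libraries (log2 fold change -0.60, SE 0.075, edgeR adjusted p 8.74e-08). In both genes the groups were well apart. Lsm1, the cytoplasmic subunit, fell as well, with 39.6, 39.5 and 39.9 CPM in the controls and 29.1, 27.7 and 28.5 CPM in the MAOA-KO libraries (log2 fold change -0.48, SE 0.050, edgeR adjusted p 3.73e-09). Lsm8, the nuclear subunit, measured 57.97, 62.03 and 56.9 CPM in the controls and 61.9, 58.3 and 59.3 CPM in the MAOA-KO libraries. Its groups overlapped (log2 fold change 0.02, 95% interval -0.08 to 0.12, edgeR adjusted p 0.706), and it was called in opposite directions under other settings, lower after a correction for GC content and length (-0.18, adjusted p 0.000438) and higher with library totals alone (0.11, adjusted p 0.0416). The log2 ratio of Lsm8 to Lsm1 was 0.57 ± 0.0717 in the controls and 1.07 ± 0.0157 in the MAOA-KO libraries (SD, n = 3), without overlap. Lsm5 had the highest FPKM of the family, on a short transcript of 416 bases, with 30.9, 29.4 and 31.8 CPM in the controls and 27.96, 28.2 and 25.3 CPM in the MAOA-KO libraries. Its fall was small (log2 fold change -0.17, SE 0.057, edgeR adjusted p 0.00855) and was not called without MAOA-KO replicate 3 (adjusted p 0.0741) or with library totals alone (adjusted p 0.176), whereas the correction for GC content and length gave a larger fall (-0.44, adjusted p 1.07e-09). Lsm3, Lsm6 and Lsm7 had log2 fold changes of -0.43, -0.25 and -0.41.

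**Figure D2:**
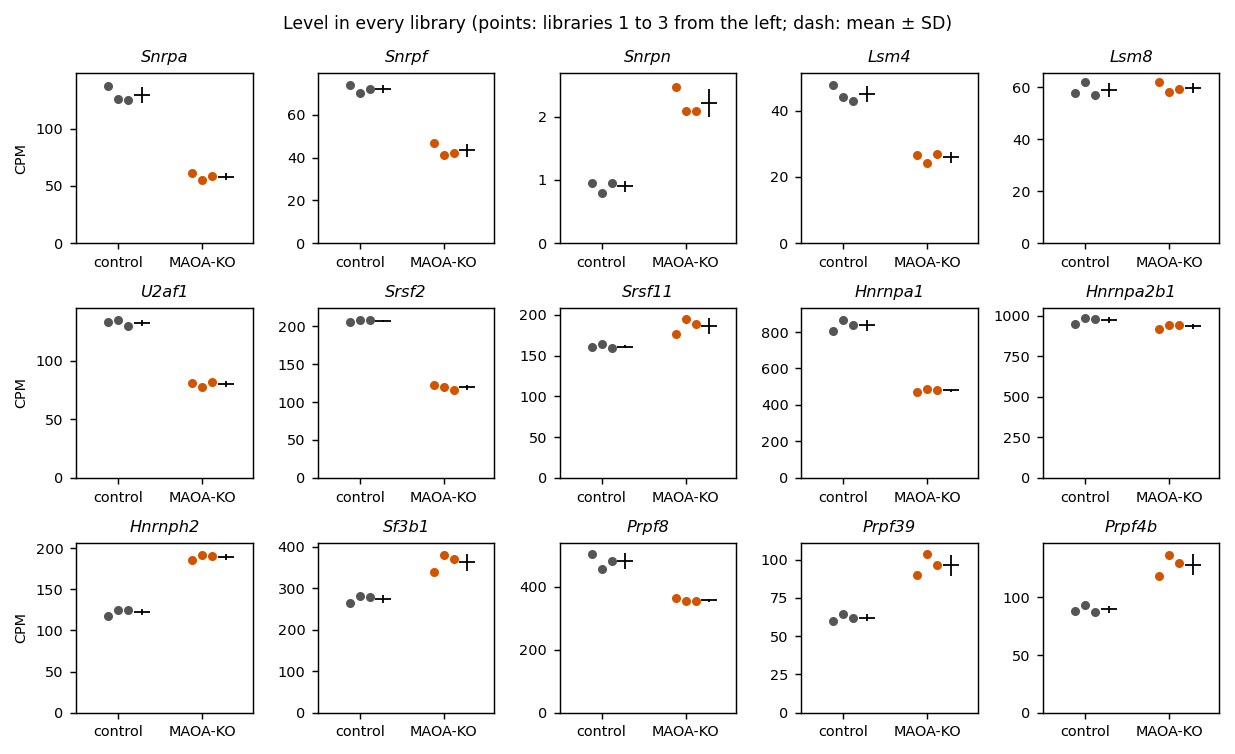
CPM in each library for 15 genes, with controls in grey, MAOA-KO in orange and the group mean ± SD as a dash with a bar; each axis starts at 0. Snrpa, Snrpf, Lsm4, U2af1, Srsf2, Hnrnpa1 and Prpf8 are lower in all 3 MAOA-KO libraries, Lsm8 overlaps, and Snrpn, Srsf11, Hnrnph2, Sf3b1, Prpf39 and Prpf4b are higher.

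Both U2AF genes fell, with a median of -0.67. U2af1, whose protein reads the AG at the end of the intron, lies at chr17:31647081-31658892 (minus strand, GRCm38.p6) and measured 133, 135 and 130.2 CPM in the controls and 81.5, 77.3 and 81.8 CPM in the MAOA-KO libraries. U2af2, whose protein binds the pyrimidine tract before that AG, measured 272, 272 and 261 CPM in the controls and 178, 174 and 177 CPM in the MAOA-KO libraries. In each gene the MAOA-KO libraries formed a tight group far below the controls. The fall was from 133 ± 2.53 to 80.2 ± 2.54 CPM as mean ± SD of 3 libraries for U2af1 (log2 fold change -0.73, SE 0.041, edgeR adjusted p 1.93e-14). For U2af2 it was from 268 ± 6.57 to 176 ± 2.20 CPM as mean ± SD of 3 libraries (log2 fold change -0.61, SE 0.037, edgeR adjusted p 1.04e-13). Summed over the pair, the scaled CPM was 36.1% lower. U2af1 has near-identical copies elsewhere in the genome, of which 1, Gm10232, has a row.

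The SF3A and SF3B genes, whose proteins clamp the U2 snRNP on the branch point, were mixed. Of 3 Sf3a genes 2 fell, and of 6 Sf3b genes 3 fell and 1 rose, where 36.9% of all genes were lower and 37% higher. Sf3b1, the scaffold around the branch helix and a gene often mutated in myeloid disease, rose, with 264, 282 and 278 CPM in the controls and 340.4, 379.6 and 369.99 CPM in the MAOA-KO libraries. The lowest MAOA-KO library lay above the highest control, and the rise was from 274 ± 9.45 to 363 ± 20.5 CPM as mean ± SD of 3 libraries (log2 fold change 0.40, SE 0.041, edgeR adjusted p 2.30e-09). A correction for GC content and length lowered the log2 fold change to 0.22, still called (adjusted p 3.74e-10). Sf3b4, at 81.6, 70.2 and 71.3 CPM in the controls and 62.1, 53.2 and 55.9 CPM in the MAOA-KO libraries, fell (log2 fold change -0.38, SE 0.057, edgeR adjusted p 1.48e-06). Sf3b6, whose protein touches the branch adenosine, fell to a lesser degree, with 95.9, 100.1 and 101 CPM in the controls and 79.5, 83.4 and 80.4 CPM in the MAOA-KO libraries (log2 fold change -0.29, SE 0.042, edgeR adjusted p 9.90e-07). Sf3b2 had the highest FPKM of the family and measured 329, 314 and 313 CPM in the controls and 294, 284 and 282 CPM in the MAOA-KO libraries. The difference in Sf3b2 was small (log2 fold change -0.15, SE 0.037, edgeR adjusted p 0.000567) and was not called with library totals alone (adjusted p 0.109).

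Sf3b3 was not called, at 319.7, 315 and 318 CPM in the controls and 335, 325 and 331 CPM in the MAOA-KO libraries. These groups did not overlap, but the difference was 0.06 on the log2 scale (edgeR adjusted p 0.146, or 0.0338 with the replicate number as a block), and exons of the opposite-strand row Cog4 overlap it. With library totals alone Sf3b3 was called higher (0.14, adjusted p 0.000731). Sf3b5, a small subunit, measured 23.5, 22.8 and 20.4 CPM in the controls and 22.9, 18.8 and 18.4 CPM in the MAOA-KO libraries. Its groups overlapped (log2 fold change -0.15, SE 0.075, edgeR adjusted p 0.0743, or adjusted p 0.0125 with the block). It was called lower without control replicate 3 (adjusted p 0.0229) and without MAOA-KO replicate 1 (adjusted p 0.00132). Summed over the 6 Sf3b genes, the scaled CPM was 2.90% higher in the MAOA-KO libraries. Unscaled, their share of counts was 0.107% to 0.108% in the controls and 0.117% in the MAOA-KO libraries, a larger rise. Of the SF3A subunits, Sf3a2 measured 47.8, 44.7 and 39.01 CPM in the controls and 36.2, 28.6 and 35.6 CPM in the MAOA-KO libraries (log2 fold change -0.40, SE 0.083, edgeR adjusted p 0.000346). Sf3a1 measured 111, 104 and 111 CPM in the controls and 94.4, 91.7 and 90.8 CPM in the MAOA-KO libraries (log2 fold change -0.23, SE 0.042, edgeR adjusted p 1.90e-05). Neither overlapped between groups. Sf3a3 measured 87.5, 92.8 and 88.3 CPM in the controls and 82.5, 87.6 and 86.5 CPM in the MAOA-KO libraries, with overlap and a 95% interval of -0.15 to 0.02 for the log2 fold change (edgeR adjusted p 0.166).

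Of the 13 Prpf genes, 7 rose, 4 fell and 2 were not called, with a median log2 fold change of 0.12. Among all genes tested 37% were higher and 36.9% lower, the latter above the share of this family. Prpf8, the largest protein of the U5 snRNP and the frame of the catalytic centre, measured 505, 456 and 483 CPM in the controls and 363, 355 and 353 CPM in the MAOA-KO libraries (log2 fold change -0.43, SE 0.038, edgeR adjusted p 1.86e-10), and it had the highest FPKM of the family. Prpf31, which binds U4 RNA, measured 101, 96.1 and 97.8 CPM in the controls and 76.9, 76.2 and 75.1 CPM in the MAOA-KO libraries (log2 fold change -0.37, SE 0.041, edgeR adjusted p 1.12e-08). Prpf19, the ubiquitin ligase of the complex that accompanies activation, measured 199, 192 and 182 CPM in the controls and 156, 146 and 153 CPM in the MAOA-KO libraries (log2 fold change -0.33, SE 0.041, edgeR adjusted p 6.83e-08). In these genes every MAOA-KO library was below every control. Prpf4, a U4/U6 protein, fell by 0.20 on the log2 scale. Its partner Prpf3 was not called, with 59.6, 57.9 and 60.7 CPM in the controls and 55.2, 58.9 and 54.5 CPM in the MAOA-KO libraries and overlapping groups (edgeR adjusted p 0.137).

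Prpf39, a U1-associated factor of alternative splicing (chr12:65036333-65063386, plus strand, GRCm38.p6), had the largest rise of the family, with 60.01, 64.5 and 61.6 CPM in the controls and 89.6, 103 and 96.2 CPM in the MAOA-KO libraries. The rise was from 62.1 ± 2.30 to 96.4 ± 6.87 CPM as mean ± SD of 3 libraries (log2 fold change 0.64, SE 0.049, edgeR adjusted p 1.23e-11), and the groups lay far apart; corrected for GC content and length it was 0.35. Exons of the opposite-strand row Fkbp3 overlap it. Prpf4b, the kinase that phosphorylates tri-snRNP proteins during assembly, measured 88.4, 93.3 and 87.4 CPM in the controls and 119, 137 and 129.5 CPM in the MAOA-KO libraries (log2 fold change 0.52, SE 0.047, edgeR adjusted p 2.99e-10), with 0.30 after the same correction. Prpf38b measured 96.1, 97.1 and 101 CPM in the controls and 112, 123 and 120.01 CPM in the MAOA-KO libraries (log2 fold change 0.27, SE 0.043, edgeR adjusted p 3.21e-06). In all 3 of these genes MAOA-KO replicate 1 was the lowest of its group, yet above every control. Prpf38a, a protein of the complex before activation and paralog of Prpf38b, measured 47.3, 48.7 and 50.2 CPM in the controls and 50.04, 57.2 and 54.8 CPM in the MAOA-KO libraries. Its groups overlapped by 1 library (log2 fold change 0.15, SE 0.051, edgeR adjusted p 0.0101), and it was not called without MAOA-KO replicate 2 (adjusted p 0.0909). Prpf18, a factor of the second step, and Prpf6, which bridges the U5 and U4/U6 particles, rose by 0.22 and 0.13 on the log2 scale. Prpf40b, a WW-domain protein linked to U1, was not called. It measured 15.2, 14.4 and 13.97 CPM in the controls and 16.8, 15.4 and 14.96 CPM in the MAOA-KO libraries, with overlap (log2 fold change 0.12, SE 0.072, edgeR adjusted p 0.151). With library totals alone it was called higher (0.20, adjusted p 0.0144).

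Among the SR proteins, 7 of 10 genes fell, 1 rose and 2 were not called, with a median of -0.30. Srsf2, which binds exonic enhancers and is another splicing gene mutated in myeloid disease, had the largest fall. At chr11:116849901-116853094 (minus strand, GRCm38.p6) it measured 206, 208 and 208 CPM in the controls and 122, 120.3 and 116 CPM in the MAOA-KO libraries. The levels were nearly equal within each group, and the fall was from 207 ± 1.43 to 119 ± 3.11 CPM as mean ± SD of 3 libraries (log2 fold change -0.79, SE 0.038, edgeR adjusted p 7.26e-16). Exons of the opposite-strand rows Mettl23 and Mfsd11 overlap it. Srsf9, which binds exonic sites much as Srsf1 does, measured 62.4, 62.1 and 62.3 CPM in the controls and 43.03, 39.95 and 39.4 CPM in the MAOA-KO libraries (log2 fold change -0.61, SE 0.047, edgeR adjusted p 1.14e-11). Srsf7, an SR protein with a zinc knuckle that also takes part in mRNA export, measured 158, 159.6 and 159.5 CPM in the controls and 111, 118 and 109 CPM in the MAOA-KO libraries (log2 fold change -0.49, SE 0.040, edgeR adjusted p 3.43e-11). Both separated the groups without overlap. Srsf1, the founding member of the family, measured 307, 321 and 336 CPM in the controls and 252, 274 and 258 CPM in the MAOA-KO libraries (log2 fold change -0.30, SE 0.041, edgeR adjusted p 3.39e-07). The smaller fall of Srsf1 raised the log2 ratio of Srsf1 to Srsf9 from 2.37 ± 0.0654 to 2.68 ± 0.117 (SD, n = 3). Srsf3, the smallest of the family and also active in export, had a log2 fold change of -0.30.

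Srsf4 measured 54.7, 50.4 and 51.3 CPM in the controls and 36.4, 37.2 and 39.5 CPM in the MAOA-KO libraries (log2 fold change -0.47, SE 0.050, edgeR adjusted p 5.21e-09). Its relative Srsf6 measured 259, 253 and 249 CPM in the controls and 235, 239 and 233 CPM in the MAOA-KO libraries. The fall of Srsf6 was small (log2 fold change -0.11, SE 0.036, edgeR adjusted p 0.00947) and was not called without MAOA-KO replicate 3 (adjusted p 0.0555) or with library totals alone (adjusted p 0.606). Srsf4 over Srsf6 went, as a log2 ratio, from -2.28 ± 0.0426 to -2.64 ± 0.0712 (SD, n = 3), without overlap. Srsf11, an SR-type protein known to bind U2AF, was the gene of this family that rose, with 159.95, 164 and 159.8 CPM in the controls and 176, 195 and 189 CPM in the MAOA-KO libraries (log2 fold change 0.21, SE 0.041, edgeR adjusted p 4.77e-05). Srsf5, at 339 ± 2.89 FPKM in the controls and 369 ± 10.00 FPKM in the MAOA-KO libraries (SD, n = 3) the member with the highest level per length, measured 528, 536 and 536 CPM in the controls and 529, 554 and 560.1 CPM in the MAOA-KO libraries. Its groups overlapped (edgeR adjusted p 0.324, 95% interval of the log2 fold change -0.03 to 0.11). With library totals alone Srsf5 was called higher (0.13, adjusted p 0.00228). Srsf10, known as a repressor of splicing when dephosphorylated, measured 144, 142 and 149 CPM in the controls and 144, 159.8 and 161 CPM in the MAOA-KO libraries. It overlapped as well (log2 fold change 0.09, SE 0.043, edgeR adjusted p 0.0568). It was called higher with the replicate number as a block (adjusted p 0.00204), without MAOA-KO replicate 1 (adjusted p 0.00176) and with library totals alone (adjusted p 0.000473). A filter of 1 CPM in 3 libraries also gave a higher call (adjusted p 0.0362). It was called lower after a correction for GC content and length (-0.08, adjusted p 0.01).

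Of the 20 hnRNP genes, 12 fell, 4 rose and 4 were not called, with a median of -0.19. The shares over all genes tested were 36.9% lower and 37% higher. Hnrnpa1, which binds splicing silencers and competes with SR proteins, lies at chr15:103240432-103246692 (plus strand, GRCm38.p6) and measured 806, 865 and 841 CPM in the controls and 472, 487 and 480.2 CPM in the MAOA-KO libraries. It fell from 837 ± 29.8 to 479.7 ± 7.67 CPM as mean ± SD of 3 libraries (log2 fold change -0.80, SE 0.036, edgeR adjusted p 1.77e-16), and the groups were far apart. Near-identical copies of its transcript are annotated, of which 1, Gm10052, has a row. Its relative Hnrnpa2b1, which had the highest FPKM of the 74 genes, measured 951, 988 and 984 CPM in the controls and 918, 944 and 945 CPM in the MAOA-KO libraries. Here the difference was -0.06 on the log2 scale and not called (edgeR adjusted p 0.122, or 0.022 with the replicate number as a block), although the groups did not overlap. Without control replicate 1 it was called lower (adjusted p 0.0383), and with library totals alone its sign turned (0.03). The log2 ratio of Hnrnpa1 to Hnrnpa2b1 went from -0.22 ± 0.0243 to -0.96 ± 0.0114 (SD, n = 3). Per length, Hnrnpa1 stood at 633 ± 21.5 FPKM in the controls and 385 ± 4.89 FPKM in the MAOA-KO libraries (SD, n = 3). Hnrnpa2b1 stood at 574 ± 11.4 FPKM in the controls and 585 ± 7.89 FPKM in the MAOA-KO libraries (SD, n = 3), so that the order of the pair turned in FPKM only. That order rests on 1 transcript length per gene, 1283 bases for Hnrnpa1 and 1647 for Hnrnpa2b1. In CPM Hnrnpa2b1 was the higher of the pair in every library of both groups. The deposited FPKM values carry no composition scaling, and on the scaled CPM the level of Hnrnpa2b1 was lower by 0.06 on the log2 scale.

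Hnrnpab measured 686, 670.1 and 678 CPM in the controls and 481, 448 and 460.2 CPM in the MAOA-KO libraries (log2 fold change -0.55, SE 0.036, edgeR adjusted p 3.85e-13). Hnrnpa0, which binds AU-rich elements, measured 152, 153 and 147 CPM in the controls and 117, 96.1 and 106 CPM in the MAOA-KO libraries (log2 fold change -0.50, SE 0.051, edgeR adjusted p 2.03e-09). Neither overlapped between groups, and in Hnrnpa0 the MAOA-KO libraries were more spread than the controls. Of the other hnRNP genes that fell, the log2 fold change was below -0.2 in 6 without a pair, namely Hnrnpul1 at -0.44, Hnrnph3 at -0.40, Hnrnpc at -0.37, Hnrnpa3 at -0.36, Hnrnpf at -0.36 and Hnrnpd at -0.27. Smaller falls were seen in Hnrnpul2 (-0.14, not called with library totals alone, adjusted p 0.209) and in Hnrnpm. Hnrnpm was at -0.10, with calls lost without control replicate 2 (adjusted p 0.0642), without MAOA-KO replicate 2 (adjusted p 0.0695) and with library totals alone (adjusted p 0.828).

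Hnrnph2 had the largest rise of the family. It encodes a protein that binds runs of G, is X-linked (chrX:134601179-134607060, plus strand, GRCm38.p6) and measured 118, 124 and 125 CPM in the controls and 186, 192 and 191 CPM in the MAOA-KO libraries. The groups were tight and far apart, with a rise from 123 ± 3.92 to 189 ± 3.33 CPM as mean ± SD of 3 libraries (log2 fold change 0.63, SE 0.039, edgeR adjusted p 1.45e-13). Its paralog Hnrnph1 measured 237, 260.2 and 256 CPM in the controls and 263, 291 and 285 CPM in the MAOA-KO libraries (log2 fold change 0.16, SE 0.043, edgeR adjusted p 0.00196), a smaller rise. For Hnrnph1 over Hnrnph2 the log2 ratio fell from 1.03 ± 0.0312 to 0.56 ± 0.0514 (SD, n = 3). Hnrnpu, which ties chromatin to RNA in the nuclear scaffold, measured 704, 725 and 729 CPM in the controls and 791, 821 and 822 CPM in the MAOA-KO libraries (log2 fold change 0.17, SE 0.034, edgeR adjusted p 6.77e-05). Exons of the opposite-strand row Cox20 overlap it. Hnrnpdl, a relative of Hnrnpd, measured 125, 134 and 131 CPM in the controls and 145, 158 and 149.7 CPM in the MAOA-KO libraries (log2 fold change 0.22, SE 0.042, edgeR adjusted p 4.93e-05). All 4 genes were higher in each MAOA-KO library than in each control.

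Hnrnpl, which binds CA repeats, measured 282, 272 and 268 CPM in the controls and 236, 225 and 234 CPM in the MAOA-KO libraries (log2 fold change -0.24, SE 0.037, edgeR adjusted p 2.04e-06). Its paralog Hnrnpll, known for its part in Ptprc splicing in lymphocytes, measured 74.3, 77.5 and 78.3 CPM in the controls and 70.3, 77.6 and 75.8 CPM in the MAOA-KO libraries, with overlap (log2 fold change -0.04, edgeR adjusted p 0.432). The log2 ratio of the pair went from 1.84 ± 0.0783 to 1.64 ± 0.105 (SD, n = 3). Hnrnpk, which binds C-rich sequence, measured 721, 765 and 777 CPM in the controls and 749, 778 and 759 CPM in the MAOA-KO libraries. It overlapped (95% interval of the log2 fold change -0.06 to 0.09, edgeR adjusted p 0.711). Other settings called it in opposite directions, lower after a correction for GC content and length (-0.10, adjusted p 0.00031) and higher with library totals alone (0.10, adjusted p 0.0129). Hnrnpr measured 145, 158 and 161 CPM in the controls and 144, 151 and 144 CPM in the MAOA-KO libraries. These groups overlapped too (edgeR adjusted p 0.0915, or 0.00876 with the replicate number as a block). It was called lower without control replicate 1 (adjusted p 0.00644), without MAOA-KO replicate 2 (adjusted p 0.0452) and after the correction for GC content and length (-0.30, adjusted p 2.79e-11).

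The ratios of paralogous or alternative subunits within a library do not depend on how libraries are scaled. They hold no correction for GC content and length, which acts gene by gene. With it the log2 fold changes of Hnrnpl (-0.14) and Hnrnpll (-0.12) came close. Those of Snrpb (-0.19) and Snrpn (1.21 or more under every alternative) stayed apart. Srsf1 went to -0.51, near Srsf9, which lay between -0.65 and -0.51 under all alternatives. Lsm8 went to -0.18, nearer to Lsm1 (-0.50 to -0.40 under all alternatives). Srsf6 went to -0.25, nearer to Srsf4 (-0.50 to -0.37). Hnrnpa1 (-0.83 to -0.72) stayed apart from Hnrnpa2b1 (-0.13 with the correction), and Hnrnph1 (0.11 to 0.24) from Hnrnph2 (0.52 to 0.72). The ratios themselves were not recomputed with the correction. In each of the 8 pairs given here the 3 control and 3 MAOA-KO ratios did not overlap. The CPM of single genes did not overlap in 75.1% of cases, but a share for ratios of other gene pairs is not given here. The exact two-sided permutation test gave p = 0.1 for each of the 8, the smallest p that 3 against 3 libraries allow, and an adjusted p of 0.113 over the 9 pairs tested, so that none can pass 0.05. The differences of the log2 ratios (MAOA-KO minus control) were -1.58 for Snrpb over Snrpn, -0.74 for Hnrnpa1 over Hnrnpa2b1, 0.50 for Lsm8 over Lsm1 and -0.47 for Hnrnph1 over Hnrnph2. They were -0.36 for Srsf4 over Srsf6, 0.31 for Srsf1 over Srsf9, -0.20 for Hnrnpl over Hnrnpll and -0.12 for Prpf38a over Prpf38b.

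**Figure D3:**
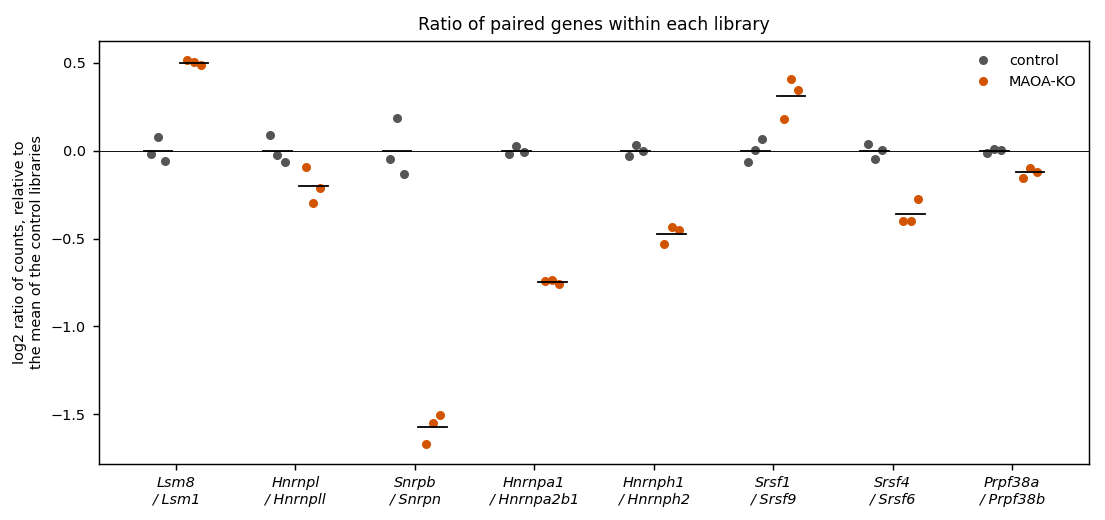
Log2 ratio of the counts of 8 gene pairs in each library, relative to the mean of the controls, with bars at the group means. The MAOA-KO points (orange) lie apart from the controls (grey) in all 8 pairs shown, most in Snrpb over Snrpn.

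Genes that fell and genes that rose differed in transcript length and base composition. The 47 genes that fell had a median length of 2257 bases and a median GC content of 49.5%, and the 15 that rose 3026 bases and 44.8%. Over the 74 genes the log2 fold change went with length at a Spearman rho of 0.47 and with GC content at -0.44. Over 9115 protein-coding genes of at least 10 CPM the values were 0.14 and -0.21. Of those genes, the ones that fell had medians of 2851 bases and 51.4%, and the ones that rose 3597 bases and 47.8%. The direction was thus shared with the transcriptome. These are correlations across genes of the same libraries, which are not independent replicates. The background genes were cut by length into 10 classes of nearly equal gene number. In the shortest class (215 to 1201 bases) the 14 splicing factor genes had a median of -0.44 and the 912 background genes a median of -0.07. The splicing factor median lay below that of the background in 9 of the 10 classes, and above it in the class from 2670 to 3135 bases, where 12 splicing factor genes had a median of -0.01 against -0.09. With GC content and length fitted out, the median over the 74 genes was -0.29. Of 61 called genes, 17 then moved by more than 1.5 times. Prpf39, Prpf4b, Prpf18 (0.11), Sf3b1, Srsf11 (0.13), Sf3b2 (-0.07), Hnrnpl (-0.14), Snrpb (-0.19) and Snrpd2 (-0.22) came nearer to 0. Lsm5, Hnrnpa3 (-0.59), Hnrnpd (-0.47), Srsf1 (-0.51), Srsf3 (-0.46), Srsf6 (-0.25) and Prpf6 (0.21) went farther from it, and Snrpb2 turned. Among genes without a call, Hnrnpa2b1 (adjusted p 3.38e-06), Hnrnpll (0.00191), Prpf3 (0.0215) and Sf3b5 (0.0251) were called lower and Prpf40b (0.0274) higher, beside Lsm8, Srsf10, Hnrnpk and Hnrnpr, which are given above with their values.

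**Figure D4:**
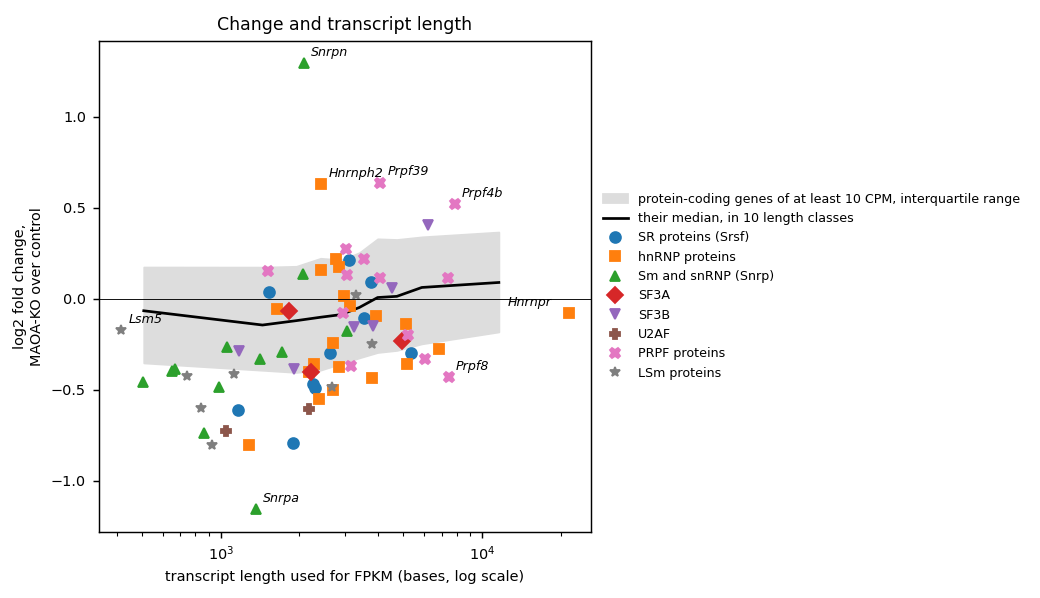
Log2 fold change against the transcript length used for FPKM (log axis) for the 74 genes, by family, with the median (line) and interquartile range (band) of 9115 protein-coding genes of at least 10 CPM in 10 length classes. Most Snrp and Lsm genes lie below the line, while Prpf39, Prpf4b and Hnrnph2 lie above it.

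Some of these genes are hard to count. Transcripts of 22 of the 74 have a near-identical copy elsewhere (at least 95% identity over at least 200 bases), 11 with a copy that has its own row. Of the 74, 13 share exon positions with another protein-coding row, 18 with a row on the opposite strand and 2 with 1 on the same strand. Among the 38 genes with neither, 20 fell and 11 rose, with a median of -0.14, and among the other 36, 27 fell and 4 rose, with a median of -0.33. Of the well expressed protein-coding genes 43% were lower and 36.4% higher, with a median of -0.04. The 38 thus lay nearer to that background than the 36. Whether these features account for the difference between the 38 and the 36 was not tested.

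Splicing genes outside these name families gave 80 lower and 35 higher calls among 139 tested, with a median of -0.15. The shares over all genes tested, to be set beside each list, were 36.9% lower and 37% higher. Of 18 further U snRNP proteins 13 fell and 3 rose. Snrnp40, a U5 protein, measured 60.01, 61.99 and 57.5 CPM in the controls and 36.8, 36.7 and 36.2 CPM in the MAOA-KO libraries (log2 fold change -0.71, SE 0.047, edgeR adjusted p 6.72e-13). Luc7l3, a U1-associated protein, measured 62.2, 66.6 and 63.3 CPM in the controls and 96.6, 111 and 102 CPM in the MAOA-KO libraries (log2 fold change 0.69, SE 0.049, edgeR adjusted p 2.05e-12). Both lay apart from the controls without overlap, in opposite directions. In the minor spliceosome, which removes a rare class of introns, 4 of 10 fell and 2 rose. Of all genes 36.9% were lower, a share near that of this list, and the lower genes were 2 without control replicate 2, MAOA-KO replicate 2 or MAOA-KO replicate 3. Zrsr1, a U2AF1-related gene that is imprinted in the mouse, had the largest rise there, with 19.4, 20.1 and 20.1 CPM in the controls and 50.1, 51.2 and 48.4 CPM in the MAOA-KO libraries (log2 fold change 1.33, SE 0.052, edgeR adjusted p 1.29e-17). Snrnp35 fell, with 15.9, 15.4 and 13.8 CPM in the controls and 11.96, 10.3 and 11.4 CPM in the MAOA-KO libraries (log2 fold change -0.43, SE 0.081, edgeR adjusted p 3.93e-05).

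Of 29 factors of the Prp19 complex and the catalytic steps, 15 fell and 10 rose, where 36.9% of all genes were lower and 37% higher. Ddx46, the helicase that remodels the U2 snRNP, measured 83.4, 90.2 and 91.02 CPM in the controls and 130.3, 140.3 and 144 CPM in the MAOA-KO libraries (log2 fold change 0.65, SE 0.045, edgeR adjusted p 1.58e-12). Ppil1, a prolyl isomerase, measured 32.7, 33.5 and 32.4 CPM in the controls and 21.8, 21.9 and 22.8 CPM in the MAOA-KO libraries (log2 fold change -0.57, SE 0.054, edgeR adjusted p 6.92e-10). Of the 16 SR-related proteins and kinases that phosphorylate SR proteins, 8 rose and 6 fell, with a median of 0.10. Its share of lower genes was near the 36.9% of all genes, and 37% of all genes were higher. Srpk2, a cytoplasmic SR kinase, had the largest rise, with 53.3, 54.6 and 55.7 CPM in the controls and 88.4, 97.1 and 93.7 CPM in the MAOA-KO libraries (log2 fold change 0.77, SE 0.045, edgeR adjusted p 4.52e-14). The nuclear kinases Clk1 and Clk4, named after their values were seen, had log2 fold changes of 0.65 and 0.60; of their relatives Clk2 was at 0.25 and Clk3, which fell, at -0.46, and Srpk1 fell too, at -0.19. Rnps1 fell, with 134, 136 and 133 CPM in the controls and 99.5, 95.5 and 97.9 CPM in the MAOA-KO libraries (log2 fold change -0.46, SE 0.039, edgeR adjusted p 7.83e-11).

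Among 37 tested of 40 other regulators, 23 fell and 8 rose. Tia1, which promotes weak donor sites, measured 50.03, 52.9 and 52.8 CPM in the controls and 81.3, 87.3 and 88.3 CPM in the MAOA-KO libraries (log2 fold change 0.72, SE 0.046, edgeR adjusted p 2.38e-13). Of 14 tested genes for Sm ring assembly and the snRNA cap, 10 fell and 1 rose. Gemin8, of the SMN complex, measured 11.7, 13.9 and 12.9 CPM in the controls and 7.56, 7.71 and 8.39 CPM in the MAOA-KO libraries (log2 fold change -0.71, SE 0.088, edgeR adjusted p 7.66e-08). Tgs1, the enzyme that completes the snRNA cap, measured 33.2, 34.2 and 35.1 CPM in the controls and 43.2, 51.4 and 49.6 CPM in the MAOA-KO libraries (log2 fold change 0.50, SE 0.057, edgeR adjusted p 2.33e-08).

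All 5 genes of the exon junction complex, which is deposited on spliced mRNA, fell, with a median of -0.44. Magohb, a close paralog of Magoh that may share reads with it, measured 43.5, 41.2 and 41.6 CPM in the controls and 22.5, 19.7 and 19.03 CPM in the MAOA-KO libraries (log2 fold change -1.04, SE 0.059, edgeR adjusted p 2.81e-14). The smallest fall was that of Rbm8a, with 138, 137 and 134 CPM in the controls and 116, 114 and 113 CPM in the MAOA-KO libraries (log2 fold change -0.25, SE 0.038, edgeR adjusted p 2.03e-06). Of 10 genes of nonsense-mediated decay, which reads that complex, 4 fell and 3 rose, shares not far from those of all genes (36.9% and 37%). Upf3b measured 17.01, 21.1 and 19.1 CPM in the controls and 27.7, 30.8 and 29.7 CPM in the MAOA-KO libraries (log2 fold change 0.62, SE 0.068, edgeR adjusted p 8.17e-09). Smg9 measured 27.1, 26.99 and 25.4 CPM in the controls and 18.97, 18.97 and 19.2 CPM in the MAOA-KO libraries (log2 fold change -0.47, SE 0.059, edgeR adjusted p 7.52e-08).

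**Figure D5:**
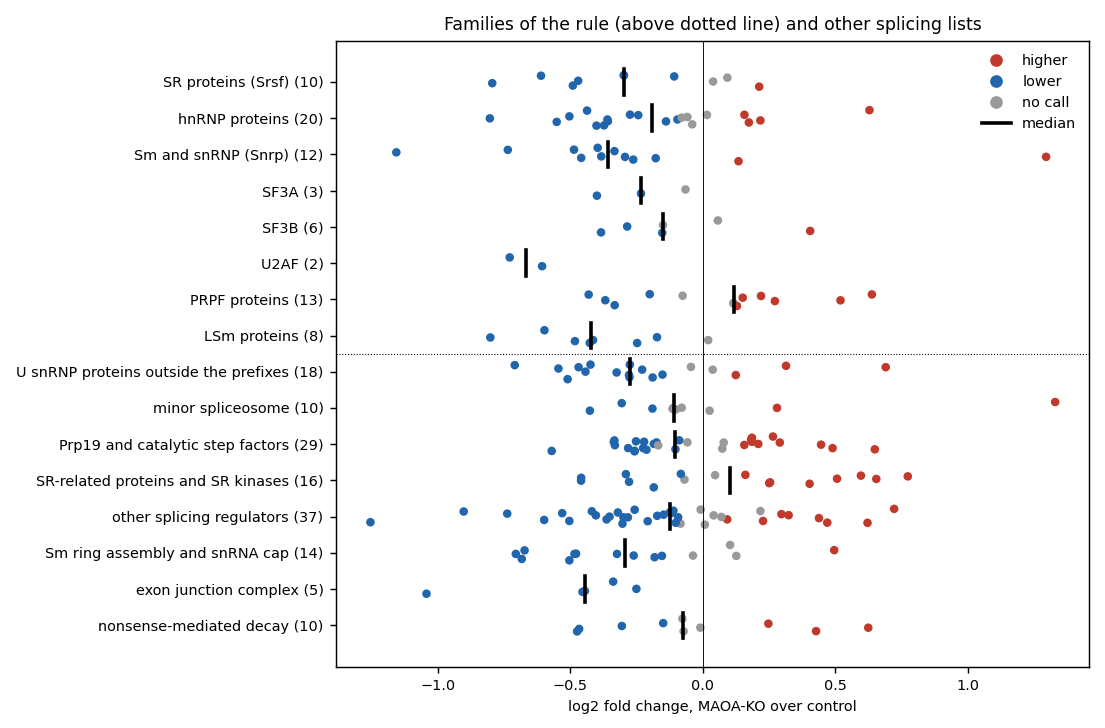
Log2 fold change of each gene in the 8 families (above the dotted line) and in 8 further splicing lists (below it), coloured by call, with the number tested in brackets and the median as a bar. Medians lie below 0 in all groups other than the PRPF proteins (0.12) and the SR-related proteins and SR kinases (0.10).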

How the data were processed

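Per the file headers, the deposited table holds read counts and FPKM of each gene in each library. It also holds results of the authors' own test (log2 fold change, p-value, false discovery rate and the −log10 of these), per the file headers. Its build is called mm10 in the submitters' processing notes and GRCm38.p6 in the headers. Which aligner, counter, strand setting and test were used is not given in the sources used here. Enrichment of small RNA is described in the labels' protocol, whereas 97.8% to 98.3% of the deposited counts fell on protein-coding genes. The smallest row total is 10 counts. The deposited FPKM follow from the counts, table totals and 1 transcript length per gene, with which the lengths of the 74 genes were read back; all 74 match a GENCODE M21 transcript within 1 base, and 48 match the longest.

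The counts were tested with edgeR 4.0.16 in R 4.3.3: filterByExpr, TMM scaling (factors 0.968 to 0.972 for controls and 1.03 for MAOA-KO), a robust quasi-likelihood fit on group, and Benjamini-Hochberg adjustment over 13243 genes at 0.05. CPM are scaled by TMM, and their errors are SDs over 3 libraries. Ratios of pairs used counts plus 0.5. Copies were sought with BLAST 2.17.0. The test was checked on simulated independent libraries, in which 50 genes each were changed by 1.2, 1.5, 2 and 4-fold. Of these 78%, 94%, 98% and 100% were recovered, and 4.15% of calls were false. Far fewer genes changed there than were called here, so error rates under so wide a change were not tested. Within groups, replicates varied beyond counting error (chi-square 1.92 to 4.26 per gene on average).

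The labels number the libraries 1 to 3 in each group without saying what a number shares. Libraries of the same number deviated together from their groups' means, with correlations of 0.367, 0.269 and 0.255 over 8993 genes of at least 10 CPM, each above 0.1, and of 0.088, 0.0576 and 0.0346 over all 13243 genes. Of the unlike numbers, control 3 and MAOA-KO 2 had a correlation of 0.247 in the first set, close to the pairs numbered 2 and 3, and the others ran from -0.484 to 0.0876. The first set was taken to decide, so pairing was allowed for as an alternative, from the data and not from the labels. The main tests were fitted on group without it, and values with the replicate number as a block are given where they change a call.

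Members and gene lists were chosen with earlier results of these data known. The genes given with every library are, per family, the called genes with the 3 highest and the 3 lowest values of the log2 fold change (higher group 5 CPM or more on average), the gene of highest mean FPKM, genes without a call and both genes of each pair, and, per further list, the highest and the lowest called gene. A few of the results this rule selects, among them 1 of the 9 pairs, are not reported here; the genes stay in all counts over families and lists. Alternatives were other size factors, library totals alone, other filters, DESeq2 1.42.0, limma-voom (limma 3.58.1), a test against 1.2-fold, the block, leaving out each library, and, chosen after seeing the data, a correction for GC content and length with splines of 5 degrees of freedom and counts over genes without copies or overlaps.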

Additional observations from a re-analysis of the deposited data

How the results depend on the processing

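Under 16 alternatives, 1081 of 1168 repeats for 73 genes kept sign and side of the threshold, 36 lost a call, 30 gained one and 21 changed sign; 54 genes kept both under all 15 alternatives other than the test against 1.2-fold. With DESeq2 size factors, no filter or limma-voom all 73 kept them. Library totals alone shifted the median of all genes by 0.09 and turned the sign, without a call, in Hnrnpa2b1 (0.028), Hnrnpll (0.046), Hnrnpr (0.0067), Prpf3 (0.010) and Sf3a3 (0.021). The GC and length correction turned Hnrnpk (-0.10), Lsm8 (-0.18), Snrpb2 (-0.033), Srsf10 (-0.082), Srsf5 (-0.036) and Sf3a3 (0.0074), with Hnrnpk, Lsm8 and Srsf10 called lower, and with the replicate block the values were -0.099, -0.19, -0.033, -0.080, -0.036 and 0.0056. Leaving out 1 library, Hnrnpk ranged from -0.020 to 0.033, Hnrnpll from -0.072 to 0.0013 and Lsm8 from -0.0097 to 0.055. Against 1.2-fold, 6079 genes were called, 3120 higher and 2959 lower, with 5 higher and 31 lower splicing factor genes. The higher ones were 1 Hnrnp, 1 Snrp, 1 Sf3b and 2 Prpf genes. The lower ones were 4 Srsf, 8 Hnrnp, 7 Snrp, 1 Sf3a, 1 Sf3b, 2 U2af, 3 Prpf and 5 Lsm genes. The further lists then gave 18 higher (1 U snRNP, 1 minor spliceosome, 3 Prp19, 5 SR-related, 5 other regulators, 1 Sm assembly, 2 decay). They gave 34 lower (6 U snRNP, 1 minor spliceosome, 2 Prp19, 2 SR-related, 11 other regulators, 6 Sm assembly, 4 exon junction complex, 2 decay). Higher counts moved with library totals alone (3 Srsf, 2 Sf3b, 1 Lsm, 3 Sm assembly), with 1 CPM in 3 libraries (2 Srsf, 3 Sm assembly), with the replicate block (2 Srsf, 2 Sf3b, 3 Sm assembly) and with the GC and length correction, with or without the replicate block (1 Snrp, 2 Sm assembly). Lower minor spliceosome genes were 2 with library totals alone, with the 1 CPM filter and with DESeq2. Leaving out 1 library, higher calls ranged from 1 to 2 in Srsf, Snrp and Sm assembly, and lower calls from 2 to 3 in the minor spliceosome. The 38 genes without copies or overlaps gave 20 lower calls. With the replicate block 17 splicing factor genes were higher and 50 lower, and of the further lists 38 higher and 84 lower. Library totals alone moved 14 of the 61 called genes by more than 1.5 times, 4 away from 0 and 10 towards it. For the rest the cause was not tested. Counts were lowest for Snrpn, at 0.80 to 2.47 CPM, and its call was kept under all 16 alternatives.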
